A study of Mus musculus with 696 samples.

Results

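Stem cells of the hair follicle bulge are known by a set of genes, 10 of which (Lgr5, Cd34, Lhx2, Sox9, Sfrp1, Grem1, Thbs1, Itga2, Dclk1 and Angptl7) were followed through 2 consecutive wounds of mouse tail skin. The genes were taken as a named list, which was chosen with earlier results of these data known. All 10 were rows of the table, out of 15652 genes in all, and all 10 passed the filter on low counts, as did 13853 genes of the table. The cells were keratinocytes that carried tdTomato because they, or their ancestors, had expressed Lrig1, which marks stem cells above the bulge, at the junction with the sebaceous gland. The study asked how the progeny of these cells behave when the same skin is injured again.

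Every mouse was of the CBA C57BL/6 mixed strain and carried the alleles Lrig1-EGFP-ires-CreERT2 and Rosa26-fl/STOP/fl-tdTomato. All animals, unwounded ones included, had been given hydroxytamoxifen once on the tail skin, so every group shared the reporter and the drug. In the study's design the drug came before the first wound. Time since labelling and age therefore rose with time point and cannot be told apart from it. The mice were female young adults. The time points were named 0w for unwounded skin, 1w pw1 for week 1 of the first healing, 8w pw1 for week 8, when the wound had closed, and 1w pw2 for week 1 after a further wound on the healed skin, labelled week 9. These 4 groups held 179, 168, 172 and 177 single cells. Recombination was driven by the Lrig1 promoter and not by a bulge promoter, so a cell enters these data only if it descends from the marked cells, and the tissue taken held both the wound bed and follicles at some distance from it. Labels do not tie cells to single mice.

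Each group came as 2 plates, called replicates 1 and 2 here, and the labels of both plates of a group share a letter (as in RepB) that no other group has. Anything that this letter marks therefore cannot be told apart from time point. The 8 plates held 79 to 91 cells and 12293182 to 19760820 estimated counts, and the median cell on a plate held 64980 to 256588 counts. The deepest cell gave 3.64% to 12.1% of the counts of its plate, and the median mitochondrial share ran from 13% to 30.7%. Of the 696 cells, 644 (92.5%) had a count for Krt5 or Krt14, keratins that define keratinocytes. Markers of other cell types were uneven. Col1a1, Kdr and Cd3e had at most 4, 4 and 5 counts on any plate, the fibroblast gene Dcn and the immune genes Ptprc and Cd74 reached 337, 292 and 287, and 14, 4 and 3 cells held 10 or more counts of them. Pecam1, on the endothelial list, had 1868 to 28293 counts per plate and 10 or more in 616 cells, while Vwf of the same list had 5 to 21 counts per plate. The study's methods describe independent experiments with several biological replicates each, but the labels do not tie plates to them, so p-values measure the spread between plates, whatever its source.

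The bulge lies below the sebaceous gland and houses slow-cycling stem cells that regrow the lower follicle at each hair cycle. The niche contains secreted inhibitors of Wnt and BMP signalling and is held in place by integrins and matrix proteins. A set of transcription factors keeps its cells from taking an epidermal or sebaceous fate. Lgr5, Cd34, Lhx2 and Sox9 are standard markers of these cells in mouse back skin. In wounds, cells of several follicle compartments can move into the epidermis.

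Promoter sequences from RefSeq (GRCm38.p6) were held for 6 of the 10 genes, 8 start sites in all. Those of Itga2 and Dclk1 are shown because these are genes called between time points, and the 2 starts of Dclk1 differ in the motifs they hold. Each run is the 250 bases before the start site, on the strand of the gene. Capitals mark matches, on either strand, to TAATTA (a core bound by LIM homeodomain factors such as Lhx2), ACAAT (a core bound by SOX factors) or ATCAAAG (a core bound by TCF/LEF factors, the nuclear arm of Wnt signalling).
Itga2, chr13:114932101-114932350, minus strand: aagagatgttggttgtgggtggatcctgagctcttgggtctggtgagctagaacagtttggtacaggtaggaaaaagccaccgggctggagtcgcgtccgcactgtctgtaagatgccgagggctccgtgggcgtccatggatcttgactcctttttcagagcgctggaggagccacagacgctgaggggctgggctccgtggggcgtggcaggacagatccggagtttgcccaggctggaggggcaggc
Dclk1 first start, chr3:55242114-55242363, plus strand: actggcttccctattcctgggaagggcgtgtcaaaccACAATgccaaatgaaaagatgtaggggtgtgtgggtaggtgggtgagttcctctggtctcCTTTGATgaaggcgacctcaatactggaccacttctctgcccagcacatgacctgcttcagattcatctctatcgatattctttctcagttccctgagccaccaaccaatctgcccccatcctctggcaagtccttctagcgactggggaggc
Dclk1 second start, chr3:55461478-55461727, plus strand: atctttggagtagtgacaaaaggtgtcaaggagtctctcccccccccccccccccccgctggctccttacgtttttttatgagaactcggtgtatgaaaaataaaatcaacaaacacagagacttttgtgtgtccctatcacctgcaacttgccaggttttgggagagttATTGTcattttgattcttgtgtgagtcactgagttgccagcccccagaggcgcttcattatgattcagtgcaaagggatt
The Itga2 window held none of the 3 motifs. The first Dclk1 start held ACAAT 213 bases before the start and the reverse complement of ATCAAAG 153 bases before it, and the second held the reverse complement of ACAAT 80 bases before it. Windows of Cd34 and Angptl7 each held 1 SOX core, and those of Lhx2 (2 starts) and Grem1 held no match. Over 32851 RefSeq promoter windows of this length, 27.7% held the SOX core, 3.21% the TCF/LEF core and 4.84% the LIM homeodomain core. A match describes the letters only.

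At 1w pw1, edgeR called 3 of the 10 genes lower, Thbs1, Itga2 and Dclk1, by 36.4-fold, 25.4-fold and 34.6-fold. The fit called 0.123% of all tested genes lower. All 10 genes had a log2 fold change below 0, as did 51.8% of all tested genes. The call of Dclk1 did not survive leaving out any single plate. Lgr5 and Grem1 had low values too but missed the threshold in the edgeR fit by time point alone. Sox9 had a log2 fold change close to 0. By 8w pw1 Thbs1 and Itga2 had risen again, calls that were lost on leaving out any single plate of either time point. After the second wound no gene of the list passed the threshold of the edgeR test against any other time point. Levels below are counts summed over a plate, TMM-scaled and expressed as CPM, a rate of the library total. Fold changes are log2 values ± SE from edgeR's quasi-likelihood test on 2 plates per time point, and a call means a Benjamini-Hochberg adjusted p below 0.05 over all 13853 genes and a fold above 2. Contrasts that share a time point share its plates.

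**Figure D1:**
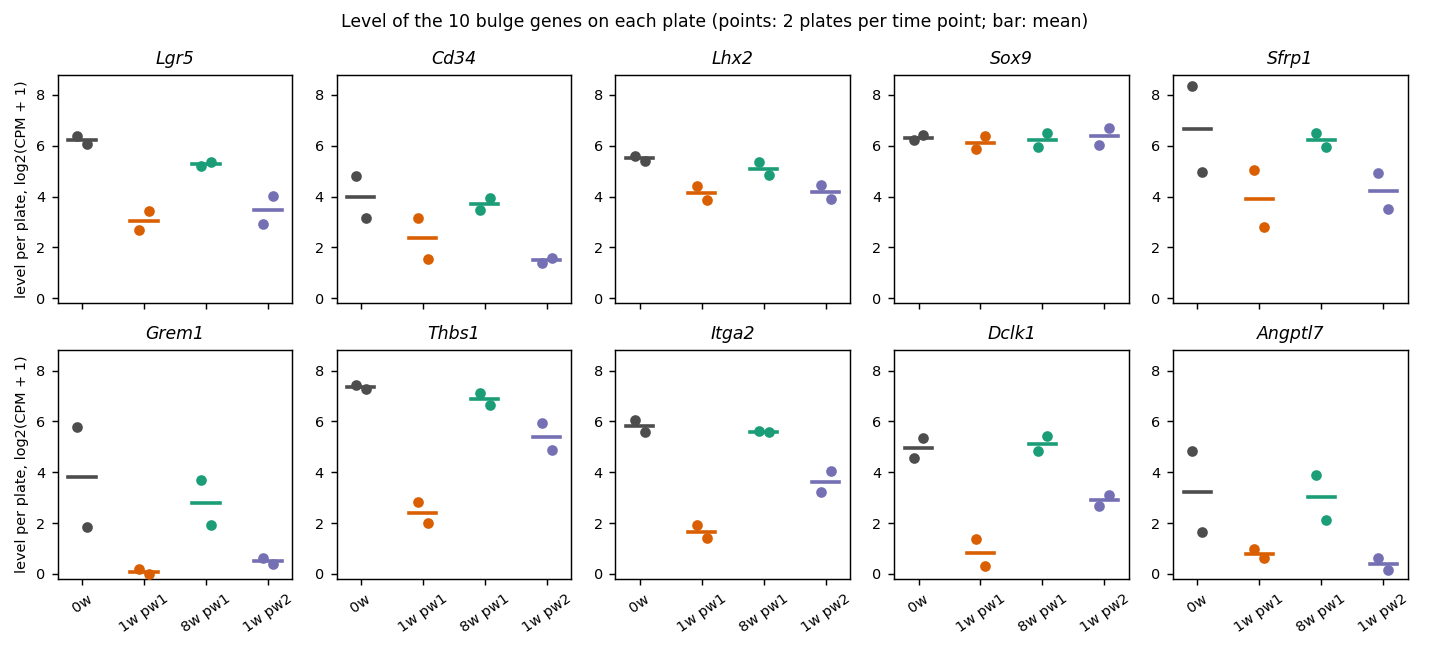
Level of each gene on each plate, as log2(CPM + 1) on the vertical axis, by time point; points are the 2 plates and bars their mean. Thbs1, Itga2 and Dclk1 drop at 1w pw1, the 8w pw1 plates of each lie above those of 1w pw1, Sox9 stays between 57.1 and 102 CPM throughout, and the 0w plates of Sfrp1, Grem1 and Angptl7 lie far apart.

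Thbs1 (chr2:118111876-118127133, plus strand, protein coding) encodes thrombospondin 1, a secreted matrix glycoprotein that binds integrins and activates latent TGF-beta. Its level was 174 and 156 CPM on the 0w plates, 6.08 and 2.99 at 1w pw1, 138 and 99.9 at 8w pw1, and 60.6 and 28.1 at 1w pw2. No 2 time points overlapped, in the order 0w, 8w pw1, 1w pw2, 1w pw1 from high to low. The change from 0w to 1w pw1 was −5.18 ± 0.65 (adjusted p = 0.0127, edgeR) and the change from there to 8w pw1 was 4.71 ± 0.64 (adjusted p = 0.0286).

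Itga2 (chr13:114833081-114932100, minus strand, protein coding) encodes the alpha 2 chain of the collagen receptor integrin alpha 2 beta 1. It stood at 66.0 and 47.1 CPM at 0w, 2.81 and 1.64 at 1w pw1, 48.0 and 47.0 at 8w pw1, and 8.33 and 15.6 at 1w pw2. The 0w and 8w pw1 plates overlapped, and both lay above the plates of either wound. Itga2 fell by 4.67 on the log2 scale at 1w pw1 (SE 0.64, adjusted p = 0.0164, edgeR) and rose by 4.41 ± 0.64 to 8w pw1 (adjusted p = 0.0447).

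Dclk1 (chr3:55242364-55539068, plus strand, protein coding) encodes a microtubule-binding kinase known from tuft cells and from quiescent bulge cells. Its plates read 22.7 and 39.8 CPM at 0w, 1.57 and 0.234 at 1w pw1, 27.3 and 41.9 at 8w pw1, and 5.32 and 7.72 at 1w pw2. Values at 0w and 8w pw1 overlapped, and both plates of 1w pw2 lay between them and those of 1w pw1. Dclk1 fell by 5.11 at 1w pw1 (SE 0.92, adjusted p = 0.0461, edgeR), a call that rested on 28 counts at 1w pw1 and was lost on leaving out any 1 of the 8 plates (adjusted p 0.0504 to 0.217). Its change to 8w pw1 was 5.26 ± 0.92 (adjusted p = 0.0867, edgeR), and ran from 4.43 to 7.14 with single plates left out.

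Lgr5 (chr10:115450311-115587780, minus strand, protein coding) encodes the receptor for R-spondins, which raises the response of a cell to Wnt ligands. It measured 81.8 and 66.9 CPM at 0w, 5.43 and 9.67 at 1w pw1, 35.7 and 39.8 at 8w pw1, and 6.65 and 15.3 at 1w pw2. Both wound time points lay below the intact ones, overlapped each other, and the 8w pw1 plates lay below those of 0w. Lgr5 differed by −3.30 ± 0.62 between 1w pw1 and 0w, with an adjusted p of 0.0541 in edgeR. That value passed without 1w pw2 replicate 1 (adjusted p = 0.0415) or replicate 2 (adjusted p = 0.0427).

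Cd34 (chr1:194938819-194961279, plus strand, protein coding) encodes a surface sialomucin used to sort bulge cells. It read 26.8 and 7.98 CPM at 0w, 7.97 and 1.93 at 1w pw1, 10.01 and 14.4 at 8w pw1, and 1.61 and 1.996 at 1w pw2. Cd34 was lowest after the second wound, where both plates lay close together, but overlapped 1w pw1. Its changes were −1.81 ± 0.86 from 0w to 1w pw1 (adjusted p = 0.468, edgeR; −0.73 ± 1.01 without 0w replicate 1) and −2.75 ± 0.90 from 8w pw1 to 1w pw2 (adjusted p = 0.503).

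Lhx2 and Sox9 are the transcription factors of the list. Lhx2 (chr2:38339281-38369733, plus strand, protein coding), a LIM homeodomain factor that maintains bulge cells, stood at 47.9 and 41.5 CPM at 0w, 20.5 and 13.5 at 1w pw1, 39.8 and 27.9 at 8w pw1, and 21.0 and 14.0 at 1w pw2. Its plates after either wound lay in nearly one range, below those of 0w and 8w pw1, and the change at 1w pw1 was −1.40 ± 0.53 (adjusted p = 0.333, edgeR). Sox9 (chr11:112782224-112787760, plus strand, protein coding), an SRY-box factor needed to form the bulge and also expressed in other follicle layers, read 74.3 and 83.8 CPM at 0w, 57.1 and 82.7 at 1w pw1, 61.4 and 89.6 at 8w pw1, and 65.0 and 102 at 1w pw2. All 4 groups of Sox9 overlapped, and the change at 1w pw1 was −0.18 ± 0.48 (adjusted p = 0.943).

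The secreted inhibitors lay far apart on the 0w plates. Sfrp1 (chr8:23411502-23449632, plus strand, protein coding), which binds Wnt ligands, stood at 323 and 30.3 CPM at 0w, 31.6 and 5.92 at 1w pw1, 90.1 and 61.2 at 8w pw1, and 29.1 and 10.5 at 1w pw2. A single cell gave 70.6% of the Sfrp1 counts on 0w replicate 1, and the change at 1w pw1 was −3.23 ± 1.11 (adjusted p = 0.264, edgeR). Without that plate it was −0.73 ± 0.96.

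Grem1 (chr2:113746164-113758646, minus strand, protein coding), which binds BMP ligands, had 1047 and 48 counts at 0w (54.4 and 2.59 CPM), 2 and 0 at 1w pw1 (0.131 and 0 CPM), 166 and 43 at 8w pw1 (11.95 and 2.81 CPM), and 8 and 6 at 1w pw2 (0.560 and 0.324 CPM). Both wound time points lay below both intact ones. Per library total, the 0w plates together held 600 times the Grem1 of the 1w pw1 plates, with an exact 95% counting interval of 166 to 4963. That ratio was 49.8 (13 to 423) without 0w replicate 1 and 1218 without 0w replicate 2, and a single cell gave 45.9% of the counts on 0w replicate 1. The intervals cover counting error only, and edgeR did not call the change (adjusted p = 0.0770).

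Angptl7 (chr4:148495183-148500460, minus strand, protein coding), a secreted angiopoietin-like protein of uncertain role in the bulge, read 27.4 and 2.16 CPM at 0w, 0.980 and 0.527 at 1w pw1, 14.0 and 3.39 at 8w pw1, and 0.560 and 0.108 at 1w pw2. Its 0w and 8w pw1 plates overlapped, as did its plates after the 2 wounds, which held 15 and 9 counts at 1w pw1 and 8 and 2 at 1w pw2. The change at 1w pw1 was −4.28 ± 1.35 (adjusted p = 0.224, edgeR), and −1.55 ± 1.30 without 0w replicate 1.

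**Figure D2:**
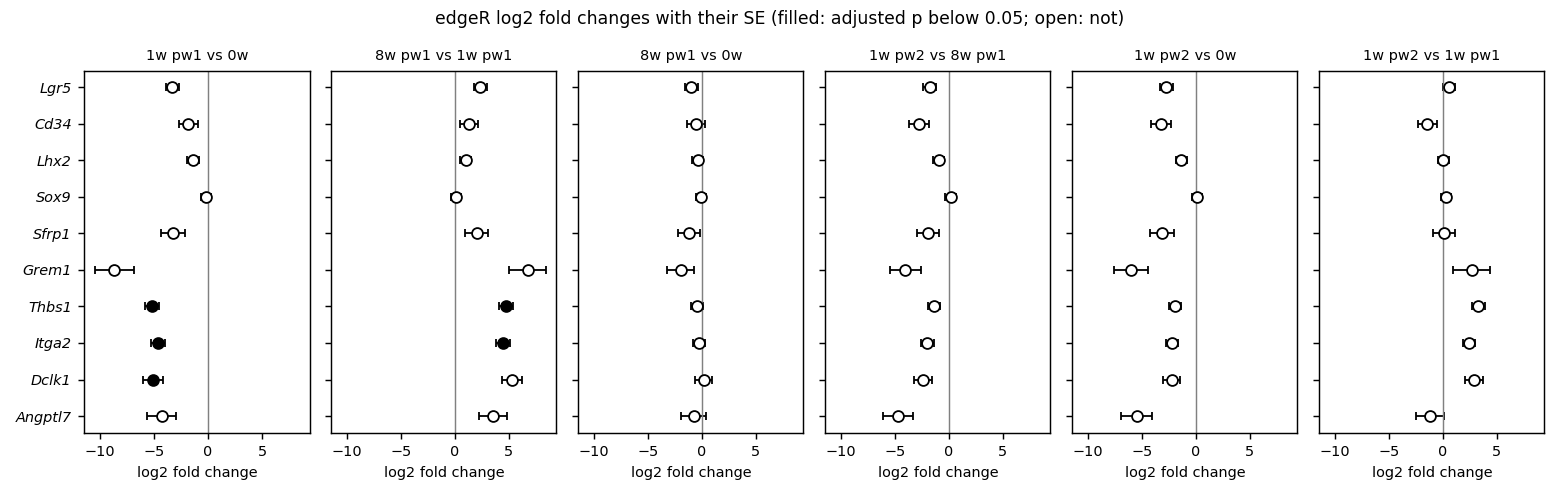
Log2 fold change of each gene (horizontal axis, with its SE) in 6 contrasts between time points; filled points were called by edgeR. Filled points are Thbs1, Itga2 and Dclk1 at 1w pw1 against 0w and Thbs1 and Itga2 at 8w pw1 against 1w pw1, while Sox9 lies near 0 in each panel.

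The contrast of 1w pw1 with 0w addresses the loss during the first healing. edgeR called 3 of the 10 genes lower and 0.123% of all tested genes lower. All 10 had a log2 fold change below 0 (51.8% of all tested genes). In edgeR 8 had an unadjusted p below 0.05, each lower (6.01% of all). DESeq2 called 7 of the 10, all lower (those 3 with Lgr5, Grem1, Sfrp1 and Angptl7), and 5.32% of all tested genes in either direction. The median log2 fold change over the 10 genes was −3.79, against −0.04 over all tested genes. For 8 genes the 0w plates were both higher than either 1w pw1 plate (all but Sox9 and Sfrp1), as was the case for 22.1% of all tested genes, and for Cd34 the gap was 7.97 against 7.98 CPM. With single plates left out, the change of Thbs1 ran from −5.80 to −4.76, that of Itga2 from −5.12 to −4.33 and that of Dclk1 from −7.04 (without 1w pw1 replicate 1) to −4.32 (without 1w pw1 replicate 2), and Thbs1 also was lowest without 1w pw1 replicate 1. The 3 calls depended on single plates. Without 0w replicate 2, 1w pw1 replicate 1 or 1w pw1 replicate 2 none of them was left, without 0w replicate 1 only Thbs1 was (adjusted p = 0.0488), and with every cell scaled to the same total Itga2 was called with Lgr5 and Grem1, but not Thbs1 or Dclk1.

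From 1w pw1 to 8w pw1, edgeR called 2 of the 10 genes higher, Thbs1 and Itga2, and 0.0433% of all tested genes higher. DESeq2 called 5 (Thbs1, Itga2, Dclk1, Lgr5 and Grem1), with 4.21% of all tested genes called. Both 8w pw1 plates lay above both 1w pw1 plates for 9 genes, all but Sox9, and for 21.5% of all tested genes. No member was called when any 1 of these 4 plates was left out or when they alone entered the fit. Thbs1 alone was called without either 0w plate, and Itga2 alone with every cell scaled equally.

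Healed and unwounded skin were then compared. At 8w pw1 against 0w, 0 of the 10 genes were called by edgeR (0% of all tested genes), 0 had an unadjusted p below 0.05 (6.48% of all tested genes) and 0 were called by DESeq2 (1.24%). The log2 fold changes ran from −1.95 ± 1.26 for Grem1 to 0.15 ± 0.76 for Dclk1, with a median of −0.49. Without 0w replicate 1 the sign turned for 5 genes, Grem1 (1.43), Angptl7 (1.92), Sfrp1 (1.25), Cd34 (0.55) and Dclk1 (−0.26). Lgr5, Lhx2 and Thbs1 were lower on both 8w pw1 plates than on both 0w plates, as were 15.6% of all tested genes. For Lgr5 the difference was −0.98 ± 0.57 (adjusted p = 0.822, edgeR). Missing the threshold does not show that the levels had come back in full.

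The second wound was compared with healed skin, with unwounded skin and with the first wound. At 1w pw2 against 8w pw1, edgeR called 0 of the 10 genes (0.00722% of all tested genes), while 7 had an unadjusted p below 0.05 (7.94% of all), each lower. DESeq2 called Angptl7, Grem1 and Itga2 lower, 3 of 10, against 2.11% of all tested genes. Both plates of 1w pw2 lay below both of 8w pw1 for 9 genes, all but Sox9, and for 16.3% of all tested genes. Angptl7 differed by −4.71 ± 1.41 (adjusted p = 0.449, edgeR), a value that was −6.21 once 1w pw2 replicate 1 was left out and −3.34 once 8w pw1 replicate 1 was, and Itga2 by −1.99 ± 0.57 (adjusted p = 0.415).

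Against 0w, 1w pw2 gave 0 edgeR calls among the 10 genes (0.267% of all tested genes), 9 unadjusted p below 0.05, each lower (12.6% of all), and 8 DESeq2 calls, each lower (5.17% of all). Sox9 and Lhx2 were the genes DESeq2 did not call. For 9 genes the 0w plates were both higher than either 1w pw2 plate, all but Sox9, and for 19.4% of all tested genes.

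Thbs1, Itga2 and Dclk1 had higher values on both plates after the second wound than after the first, without a call by edgeR. Their log2 differences between 1w pw2 and 1w pw1 were 3.29 ± 0.60, 2.43 ± 0.59 and 2.86 ± 0.84, each with an adjusted p of 0.781 in edgeR. Leaving out single plates gave 2.61 (1w pw2 replicate 1) to 3.88 (1w pw1 replicate 1) for Thbs1 and 2.05 (1w pw1 replicate 2) to 4.74 (1w pw1 replicate 1) for Dclk1. They were the 3 members with an unadjusted p below 0.05 (6.01% of all tested genes), edgeR called 0 of 10 (0% of all), and DESeq2 called Thbs1 and Itga2, but not Dclk1 (0.314% of all). Dclk1 was found in 5 of 168 cells at 1w pw1 and 4 of 177 at 1w pw2. Both 1w pw2 plates lay above both 1w pw1 plates for these 3 and Grem1, 4 of 10, and for 19.9% of all tested genes. Cd34 and Angptl7 had the opposite sign, −1.45 ± 0.87 and −1.19 ± 1.32 (adjusted p = 0.795 and 0.878, edgeR). These became −0.11 for Cd34 without 1w pw1 replicate 1 and −0.40 for Angptl7 without 1w pw2 replicate 2.

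The change at the second wound minus the change at the first was tested as a single term. edgeR called 0 of the 10 genes (0% of all tested genes), and Thbs1 (3.76 ± 0.80, adjusted p = 0.579), Itga2 (2.68 ± 0.80, adjusted p = 0.873) and Dclk1 (2.71 ± 1.12, adjusted p = 0.922) had an unadjusted p below 0.05, as did 5.34% of all tested genes. With single plates left out the term ran from 3.12 (1w pw2 replicate 1) to 4.40 (1w pw1 replicate 1) for Thbs1 and from 1.93 (1w pw1 replicate 2) to 4.64 (1w pw1 replicate 1) for Dclk1. DESeq2 called Thbs1 alone (adjusted p = 0.00411), with 0.556% of all tested genes called.

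**Figure D3:**
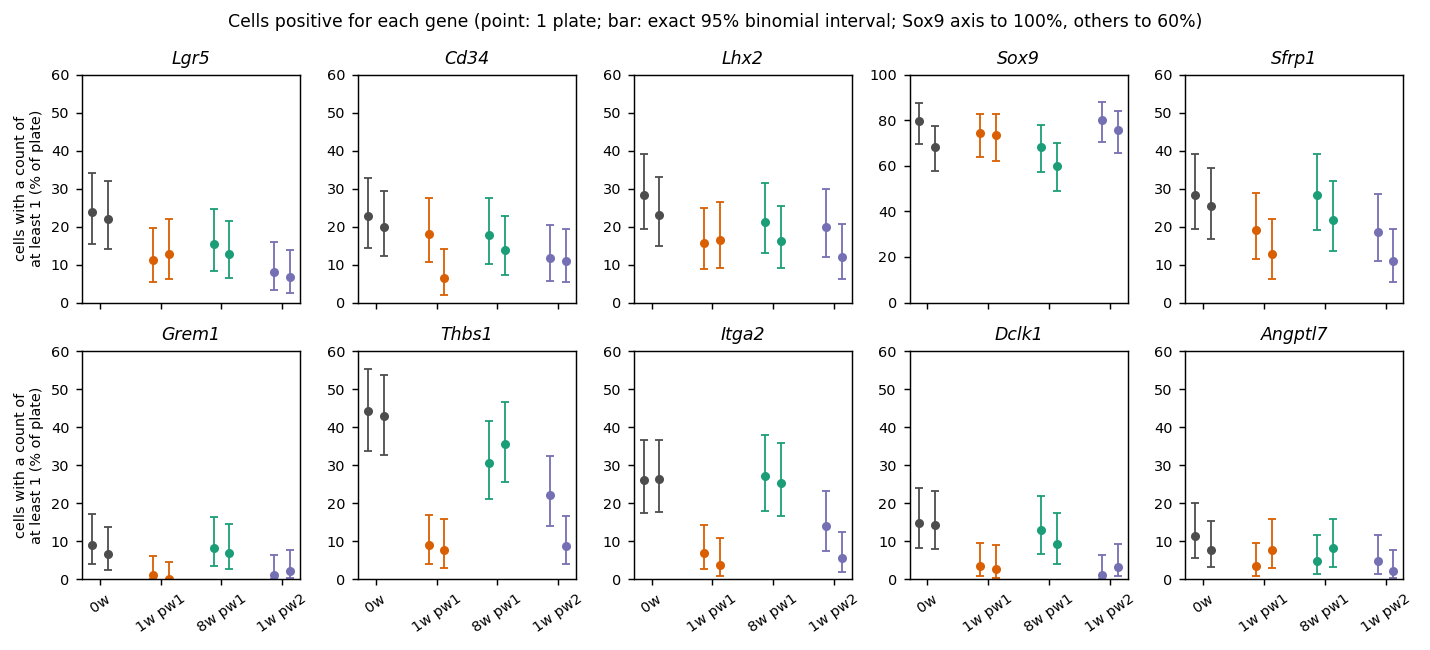
Share of cells on each plate with a count of at least 1 for each gene (vertical axis, %), with exact 95% binomial intervals that cover counting error only. Thbs1 goes from 44.3% and 42.9% of cells at 0w to 8.99% and 7.59% at 1w pw1, and the Sox9 shares stay between 59.8% and 80.2%.

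Counts per cell show how many cells carried each gene. A cell was called positive at a count of at least 1. Thbs1 was found in 39 of 88 and 39 of 91 cells at 0w, 8 of 89 and 6 of 79 at 1w pw1, 26 of 85 and 31 of 87 at 8w pw1, and 19 of 86 and 8 of 91 at 1w pw2. In its positive cells the median level was 185 and 126 CPM at 0w, 47.9 and 31.0 at 1w pw1, 217 and 133 at 8w pw1, and 163 and 141 at 1w pw2. At the first wound both the number of Thbs1 cells and the level in them were lower, whereas at the second the number was lower and the level lay within the range of the intact skin.

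Itga2 was positive in 23 and 24 cells at 0w, 6 and 3 at 1w pw1, 23 and 22 at 8w pw1, and 12 and 5 at 1w pw2. Dclk1 was positive in 13 and 13, then 3 and 2, then 11 and 8, then 1 and 3 cells. Grem1 was positive in 8 and 6, then 1 and 0, then 7 and 6, then 1 and 2 cells. With so few carriers, single cells set the plate totals. A single cell held all 8 Grem1 counts of 1w pw2 replicate 1 and all 76 Dclk1 counts of the same plate.

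Lgr5 was positive in 21 and 20 cells at 0w, 10 and 10 at 1w pw1, 13 and 11 at 8w pw1, and 7 and 6 at 1w pw2. The share of Lgr5 cells at 8w pw1 (15.3% and 12.6%) overlapped that at 1w pw1 (11.2% and 12.7%), while the median level in positive cells was 304 and 139 CPM against 17.2 and 4.62. Of the 20 Lgr5-positive cells at 1w pw1, 5 held 10 or more counts, and a single cell gave 53.7% and 67.9% of the counts on the 2 plates. At 1w pw2 those medians were 6.76 and 100 CPM.

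Sfrp1 was positive in 25 and 23 cells at 0w, 17 and 10 at 1w pw1, 24 and 19 at 8w pw1, and 16 and 10 at 1w pw2. Cd34 cells numbered 20 and 18, 16 and 5, 15 and 12, and 10 and 10 in the same order, and Lhx2 cells 25 and 21, 14 and 13, 18 and 14, and 17 and 11. Angptl7 was the sparsest gene after Grem1, with 10 and 7, 3 and 6, 4 and 7, and 4 and 2 cells. Sox9 was seen in 504 of the 696 cells, between 59.8% and 80.2% of each plate.

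The share of positive cells was lower on both 1w pw1 plates than on both 0w plates for 9 of the 10 genes, all but Sox9, and for 17.1% of all tested genes. It was higher on both 8w pw1 plates than on both 1w pw1 plates for Sfrp1, Grem1, Thbs1, Itga2 and Dclk1, 5 of 10, and for 11% of all tested genes. It was lower on both 1w pw2 plates than on both 8w pw1 plates for 8, all but Lhx2 and Sox9, and for 9.95% of all tested genes. Cells were deepest at 1w pw1, so shares were repeated after each cell was thinned to 50000 counts, which kept 560 cells. Thbs1 then stood at 36.8%, 2.72%, 33.6% and 14.7% of cells at the 4 time points, and Itga2 at 22.9%, 2.72%, 19.3% and 5.33%. After thinning, with the cells of both plates pooled, 10 of the 10 shares were lower at 1w pw1 than at 0w. In the same way 9 were lower at 1w pw2 than at 8w pw1. Thinned shares were not read for all tested genes, so these counts cannot be judged against them.

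**Figure D4:**
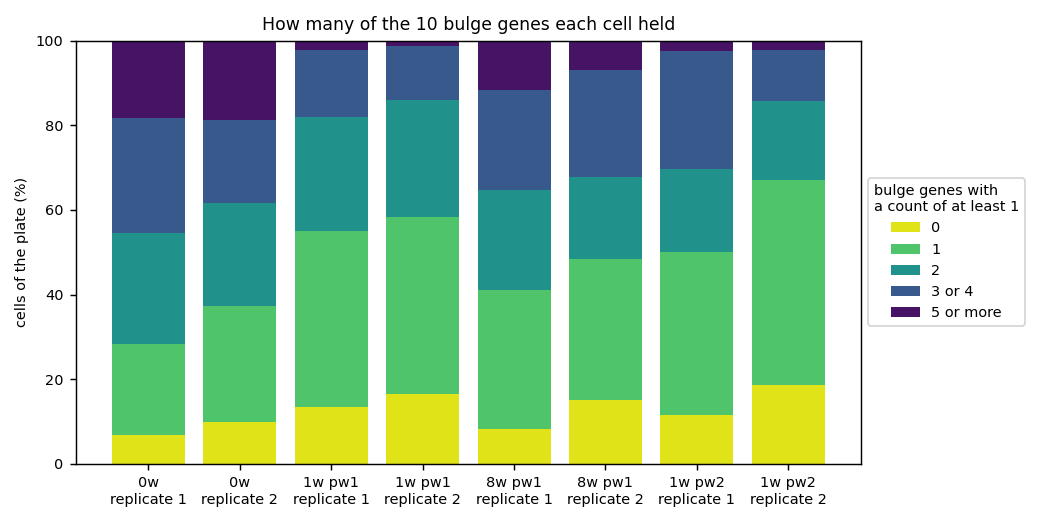
Cells of each plate (vertical axis, %) by how many of the 10 genes had a count of at least 1. Cells with 3 or more of the genes make up 45.5% and 38.5% of the 0w plates and 18.0% and 13.9% of the 1w pw1 plates, and cells with 5 or more are few after either wound.

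Cells that held several of the genes at once followed the same course. At least 3 of the genes were found in 40 of 88 (45.5%, exact 95% interval 34.8% to 56.4%) and 35 of 91 cells at 0w, in 16 of 89 (18.0%) and 11 of 79 (13.9%) at 1w pw1, in 30 of 85 (35.3%) and 28 of 87 (32.2%) at 8w pw1, and in 26 of 86 (30.2%) and 13 of 91 (14.3%) at 1w pw2. Plates of 0w, 8w pw1 and 1w pw1 did not overlap, and those of 1w pw2 reached from the level of 1w pw1 to just below 8w pw1. At least 5 genes were held by 33, 3, 16 and 4 cells in the same order, and exactly 2 and exactly 4 by 45 and 22, 46 and 7, 37 and 19, and 34 and 11. Cells with exactly 3 numbered 20, 17, 23 and 24, most at 1w pw2, so this class did not follow that course. Cells with 3 or more of the genes were deeper (median 186727 counts, 199 cells) than the other 497 (median 114668). With 10 or more counts asked of each gene, the cells with 3 or more numbered 33, 4, 19 and 9 at the 4 time points, and with Sox9 and Dclk1 left out of the list, at a count of 1, they numbered 53, 10, 36 and 16.

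Sox9 and Dclk1 mostly gave lower correlations than the other 8 genes did among themselves. Over the 696 cells, the correlation of log2(CPM + 10) was 0.18 to 0.52 for the 28 pairs among those 8 (median 0.32), −0.07 to 0.09 for the 9 pairs with Dclk1 and −0.08 to 0.19 for the 9 with Sox9. Lgr5 and Thbs1 gave the highest value, 0.52. Sox9 with Lhx2 (0.19) was level with Lgr5 and Cd34 (0.18), the lowest of the 28. The points share plates and depth, so these values are descriptions. Of 98 Lgr5-positive cells 49.0% were Lhx2-positive, against 14.2% of Lgr5-negative cells, whereas of 54 Dclk1-positive cells 14.8% were Lhx2-positive, against 19.5% of the rest, and 92.6% were Sox9-positive, against 70.7%.

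**Figure D5:**
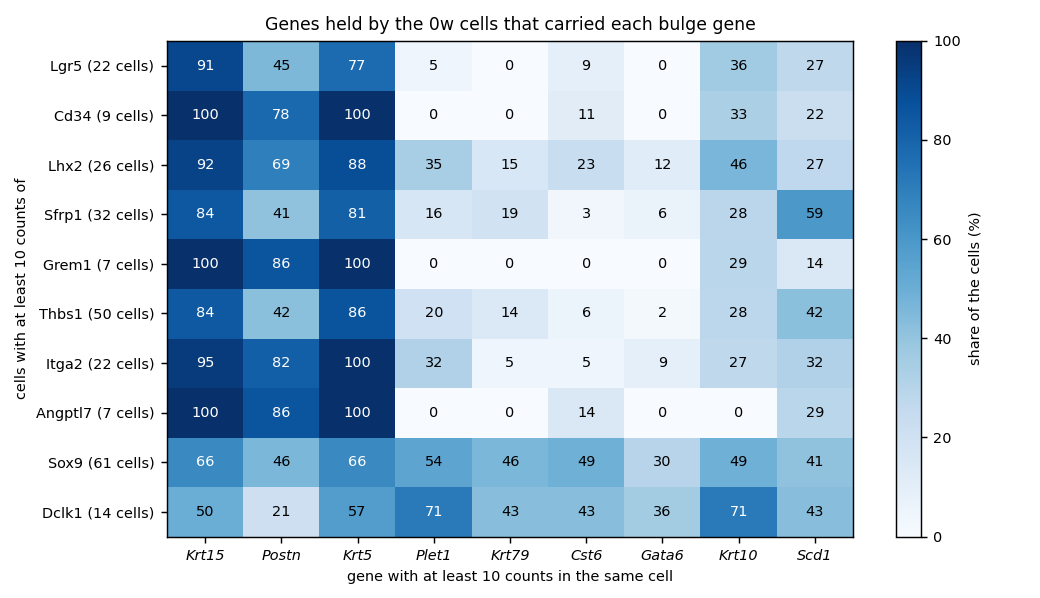
Share of the 0w cells with at least 10 counts of each gene (rows) that also had at least 10 counts of 9 other genes (columns), in %. The upper 8 rows hold Krt15 in 84.0% to 100% of cells, and the lowest rows, Sox9 and Dclk1, have the highest shares for Plet1, Krt79, Cst6, Gata6 and Krt10.

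What else the carriers held was read in cells with at least 10 counts of a gene, first within 0w, because the shares of these markers change with time. Krt15, a basal keratin strong in the bulge, reached 10 counts in 84.0% to 100% of the 0w carriers of the 8 genes other than Sox9 and Dclk1, against 57.4% to 63.4% of the 0w cells without them. It did so in 65.6% of 61 Sox9 carriers (64.4% of the rest) and in 50% of 14 Dclk1 carriers (66.1% of the rest). Krt5, a basal keratin, reached it in 77.3% to 100% of the carriers of the 8 genes, 65.6% of Sox9 and 57.1% of Dclk1 carriers. For Postn, a matrix protein known from more than one part of the follicle, the 8 genes ran from 40.6% for Sfrp1 to 85.7% for Grem1 and Angptl7, with Sox9 carriers (45.9%) inside that range and Dclk1 carriers (21.4%) below it.

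The genes of the upper follicle that were read, Plet1, Krt79, Cst6 and Gata6, gave higher shares in carriers of Dclk1 and Sox9. Lrig1 and Lgr6, on the same marker list, were not read in the carriers. Plet1, a marker of the junctional zone, reached 10 counts at 0w in 71.4% of Dclk1 carriers (27.3% of the rest) and 54.1% of Sox9 carriers (18.6% of the rest). Among the 8 genes, Lhx2 and Itga2 carriers stood at 34.6% and 31.8%, close to the cells without them (30.1% and 30.6%), and the other 6 at 0% to 20%. Gata6, a transcription factor of the follicle duct, was held by 35.7% of Dclk1, 29.5% of Sox9 and 0% to 11.5% of the carriers of the 8 genes. Krt10, a keratin of differentiating cells, reached 71.4% in Dclk1 carriers (40% of the rest), 49.2% in Sox9 carriers and 0% to 46.2% in the 8. Scd1, an enzyme of the sebaceous gland, was held by 59.4% of Sfrp1 carriers (35.4% of the rest) and by 14.3% to 42% of the carriers of the other 7 of these genes. Over all time points 37.9% of 29 Dclk1 carriers, 41.6% of 245 Sox9 carriers and 66.7% to 95.6% of the carriers of the 8 genes held Krt15, but the Krt15 share of all cells itself ran from 12.7% to 71.6% between plates. The median Dclk1 carrier held 215387 counts and the median other cell 129319. These shares pool cells of several plates and were not tested, and the 9 genes compared were picked from the marker lists after the leading genes of the carriers had been seen.

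Other genes known from the bulge were read from a list of 20 that excludes the 10. This list too was chosen with earlier results of these data known. Of 19 tested at 1w pw1 against 0w, edgeR called 0, 18 had a log2 fold change below 0 (51.8% of all tested genes) and 9 of these an unadjusted p below 0.05 (6.01% of all), and the median was −1.65 against −0.04 over all tested genes. The lowest fitted values were those of Igfbp5, Ccn2 and Wif1. Ccn2, a secreted matrix-associated protein, was at −5.89 ± 1.5 (adjusted p = 0.141, edgeR). With single plates left out it ran from −6.75 (1w pw1 replicate 2) to −5.03 (0w replicate 1). It passed the threshold when 8w pw1 replicate 1 or 8w pw1 replicate 2 was left out. Igfbp5 had 40 and 3 counts at 0w and 0 at 1w pw1, so only a bound can be given, at least 15.7-fold lower against a floor of 3 counts over both plates (31-fold without 0w replicate 2, and no fold can be given without replicate 1). The highest were Krt24 (3.89 ± 0.97, adjusted p = 0.13, edgeR) and Nfatc1 (−0.21 ± 0.46, adjusted p = 0.930). Krt24 was at 2.75 without 1w pw1 replicate 2 and at 5.07 without 0w replicate 1. Wif1, a secreted Wnt inhibitor, was the only one called in any contrast of the fit to all 8 plates, at 1w pw2 against 0w. It had 105 and 83 counts at 0w, 1 and 2 at 1w pw1, 142 and 187 at 8w pw1 and 0 on both 1w pw2 plates, at least 55.5-fold lower than 0w (adjusted p = 0.0376, edgeR). Per library total, 0w held 68.7 times the Wif1 of 1w pw1, with an exact 95% counting interval of 23.2 to 336 (adjusted p = 0.0556, edgeR).

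Pathway partners were read the same way. Of 25 tested receptors, ligands and effectors of Wnt and BMP signalling, edgeR called 0 in each of the 7 contrasts, and at 1w pw1 against 0w 15 were below 0 (51.8% of all tested genes), with a median of −0.28 against −0.04 over all tested genes. Bmp2, a BMP ligand, (−4.64 ± 2.13, adjusted p = 0.449, edgeR) and Lgr6, the R-spondin receptor of the upper follicle, (−2.29 ± 0.96, adjusted p = 0.388) were lowest. Bmp2 was at −1.42 ± 2.16 without 0w replicate 2. Without 1w pw1 replicate 1 the remaining plate of that time point read 0 CPM for Bmp2, so no fold can be given. Lgr6 was at −1.22 without 0w replicate 1 and at −3.98 without 1w pw1 replicate 2. Ctnnb1, which encodes beta-catenin, (1.14 ± 0.50, adjusted p = 0.422) and Sfrp2, a Wnt inhibitor with 0 counts at 0w and 0 and 13 on the 1w pw1 plates, were highest.

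Of 13 adhesion partners (integrins with Cd47, Cd36, Sdc1 and Cd44), 0 were called in any contrast. At 1w pw1 against 0w 9 were below 0 (51.8% of all tested genes) and 4 above, and the median was −0.12 against −0.04. Cd36, a thrombospondin receptor, had 17 and 198 counts on the 0w plates and 0 at 1w pw1, at least 78.6-fold lower (adjusted p = 0.124, edgeR), a bound that was 13.2-fold without 0w replicate 2 and 137-fold without replicate 1, and Itga1, another collagen receptor chain, was at −3.81 ± 1.31 (adjusted p = 0.266), and at −0.90 ± 1.42 without 0w replicate 2. Itgb1, the partner chain of Itga2, was at −0.01 ± 0.56 (adjusted p = 0.999). Sdc1 (130 and 118 CPM at 0w, 201 and 220 at 1w pw1), Cd44 (462 and 359, then 761 and 687) and Itgb5 (10.4 and 3.02, then 19.9 and 13.1) were higher on both 1w pw1 plates than on both 0w plates.

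The 2 rankings named the genes most like the 10. Over the 8 plates, the mean centred log2 CPM of the 10 ran with Ctnnal1 (r = 0.97), Tns1, Ccnd2, Slc38a2, Crim1, Fgfr2, Slc25a20 and Gstm2 (r = 0.94) among 5903 genes with an average log2 CPM of at least 4. Ctnnal1, a relative of alpha-catenin, read 74.3 and 46.8 CPM at 0w, 7.12 and 4.34 at 1w pw1, 40.1 and 66.5 at 8w pw1, and 13.02 and 10.3 at 1w pw2. Over the 696 cells, Scrg1 (r = 0.57), Il31ra, Agrn, Shisa2, Ftl1, Crip1, Krt15 and Cxcl14 (r = 0.52) were most like the mean of the 10. The plates share few time points and the cells share depth, so both rankings only describe.

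Marker lists of other cell states and cell types were read beside the 10 genes. The summed level of 6 sebaceous gland genes was 859 to 7498 CPM at 0w, 556 to 579 at 1w pw1, 912 to 3717 at 8w pw1 and 595 to 814 at 1w pw2, and edgeR called 0 of the 6 in each of the 7 contrasts. At 1w pw1 against 0w all 6 were below 0 (51.8% of all tested genes), 5 with an unadjusted p below 0.05 (6.01% of all). Their median was −3.66, against −3.79 for the 10 genes. From 1w pw1 to 8w pw1 all 6 were above 0, with a median of 2.32. The 6 junctional zone and upper follicle genes summed to 5366 to 5749, 13600 to 13836, 13068 to 16867 and 11011 to 25394 CPM over the time points in the same order. Cst6 and Krt79 held most of that sum, and 0 of the 6 were called either. At 1w pw1 against 0w 3 of them were below 0 and 3 above, with a median of 0.10, from Lgr6 (−2.29 ± 0.96) to Krt79 (1.58 ± 0.46). The sum over 6 interfollicular differentiation genes was 2282 to 3032, 36957 to 39171, 4457 to 5187 and 14164 to 24241 CPM. Of these, edgeR called Krt10 alone at 1w pw1 against 0w (4.16 ± 0.66, adjusted p = 0.0276), while Sbsn (0.73 ± 0.48, adjusted p = 0.640) and Lor (0.39 ± 1.44, adjusted p = 0.965) had the smallest values, and from 1w pw1 to 8w pw1 4 of the 6 were below 0. The 4 stress keratins summed to 410 to 1013, 8542 to 14620, 1242 to 1400 and 4572 to 4653 CPM, and edgeR called Krt6a, Krt6b and Krt16 of them higher at 1w pw1.

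Among other cell types, the 5 fibroblast genes in the table summed to 20.5 to 25.4 CPM at 0w, 0.586 to 1.96 at 1w pw1, 3.10 to 4.31 at 8w pw1 and 3.71 to 15.9 at 1w pw2, with Col1a1 at 0 on at least 1 plate. The 3 endothelial genes summed to 474 to 873, 110 to 198, 857 to 1846 and 310 to 911 CPM, with Kdr also at 0 on at least 1 plate. Pecam1 holds most of that sum and had 10 or more counts in 616 cells, so the sum cannot be read as a level of endothelial cells. Pecam1 was at −2.13 ± 0.66 from 0w to 1w pw1 (adjusted p = 0.216, edgeR) and at 3.14 ± 0.69 from there to 8w pw1 (adjusted p = 0.140). The 3 immune genes summed to 0.208 to 0.216 CPM at 0w, 0.196 to 0.293 at 1w pw1, 0.792 to 7.37 at 8w pw1 and 2.94 to 31.4 at 1w pw2. The part of these markers in the changes of the 10 genes was not tested.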

How the data were processed

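Smart-seq2 libraries of single tdTomato+ cells carry neither molecular identifiers nor strand, so reads of overlapping antisense genes cannot be told apart. The authors deposited one table of estimated counts from Salmon 0.13.1 on an Ensembl annotation of GRCm38, not normalised. These were added up over each plate and rounded (8 plates, 15652 genes, 0 columns without a sample), and plates, not cells, were compared. edgeR 4.0.16 (R 4.3.3) fitted all 8 plates by time point alone (TMM scaling, filterByExpr, quasi-likelihood test), with 4 residual degrees of freedom and a common biological coefficient of variation of 0.61. With 2 plates against 2, an exact permutation test cannot go below 0.333, so calls depend on the spread estimated over all genes. The script was tested on simulated counts. DESeq2 1.42.0 and the other alternatives are given in the closing section. The members and gene lists were chosen with earlier results of these data known. Named genes were all members, called list genes (otherwise the 2 lowest and 2 highest at 1w pw1 against 0w), and the 8 genes most like the members, without gene models and pseudogenes. In the adhesion list they were instead the 2 lowest, Itgb1, and the genes higher on both 1w pw1 plates than on both 0w plates. Coordinates are from GENCODE M21, matched by symbol to the Ensembl names of the counts.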

Additional observations from a re-analysis of the deposited data

How the results depend on the processing

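For 1w pw1 against 0w (3 genes), DESeq2 gave 7, and leaving out single plates gave 0 to 3. For 8w pw1 against 1w pw1 (2 genes), DESeq2 gave 5, cells scaled equally 1, the fit of only the 4 plates compared 0, and leaving out single plates 0 to 2. DESeq2 gave 3 for 1w pw2 against 8w pw1, 8 against 0w, 2 against 1w pw1 and 1 for the difference between the healings, where edgeR gave 0. The cause of these differences was not tested, except that leaving out plates leaves fewer samples; a lone plate was then assumed to vary like the other groups.

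With the replicate number as a block, the calls numbered 5 for 1w pw1 against 0w (Lgr5 and Grem1 added) and 4 for 8w pw1 against 1w pw1 (Grem1 and Dclk1 added), and no other count changed. These counts are not set against the share of all tested genes called under the block, so they cannot be judged against it. Same-numbered plates deviated together with r of 0.12 to 0.21 across genes in 6 pairs of time points, but each contrast has only 2 numbers, and the labels tie a number to no shared animal or day, so the numbers were not treated as pairs.

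The bounds of Cd36 and Igfbp5 and the ratio of Grem1 counts without single 0w plates, and the other named list genes without single plates, were also added after seeing the data. Among the latter the sign turned for Itgb1 (−0.96 to 0.56) and Nfatc1 (−0.49 to 0.016). The share of cells with 3 or more of the genes (41.9%, 16.1%, 33.7% and 22% in the order of the time points) was 67.0%, 43.5%, 55.2% and 41.2% for 2 or more genes, 18.4%, 2.38%, 11% and 5.08% at 10 counts, and, chosen after seeing the data, 29.6%, 5.95%, 20.9% and 9.04% over the 8 genes without Sox9 and Dclk1.

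Signs turned only for changes that edgeR had not called. With cells scaled equally Sox9 was at 0.16 (1w pw1 against 0w) and −0.35 (8w pw1 against 1w pw1), Cd34 and Itga2 at 0.0024 and 0.0018 (8w pw1 against 0w), Lhx2 and Sfrp1 at −0.64 and −0.20 (1w pw2 against 1w pw1), and Lhx2 at −0.027 for the difference between the healings. Sox9, with single plates left out, ran from −0.48 to 0.045 (1w pw1 against 0w), −0.24 to 0.38 (8w pw1 against 1w pw1), −0.43 to 0.17 (8w pw1 against 0w), −0.17 to 0.50 (1w pw2 against 8w pw1), −0.27 to 0.34 (1w pw2 against 0w) and −0.081 to 0.54 (1w pw2 against 1w pw1). For 8w pw1 against 0w it gave Cd34 −1.16 to 0.55, Sfrp1 −2.13 to 1.25, Grem1 −3.32 to 1.43, Angptl7 −2.10 to 1.92 and Dclk1 −0.26 to 0.58; without 0w replicate 1 all 5 turned. For 1w pw2 against 1w pw1 it gave Lgr5 −0.16 to 1.01, Lhx2 −0.30 to 0.36 and Sfrp1 −0.86 to 1.73, and for the difference between the healings Cd34 −2.00 to 0.43, Sfrp1 −1.16 to 2.99 and Angptl7 −3.09 to 0.92. The latter contrast uses all plates, so it has no fit of only the plates compared. Sparse counts limit Grem1 and Angptl7 after either wound.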
